A study of Homo sapiens with 18 samples.

Results

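The response of Hep3B cells to free fatty acids (FFA) was described by comparing the 3 libraries of the FFA-treated Model group with the 3 libraries of the untreated control group (Con), 6 of the 18 libraries in the series, chosen by their sample titles. Hep3B is a human hepatoma cell line that makes many liver proteins, and the labels class it as liver cancer cells. Each group was sequenced as 3 biological replicates of polyadenylated RNA in a single run, so the results hold for 1 tumour line in culture and not for primary hepatocytes. Model cells received FFA alone, and the other 12 libraries came from cells given FFA with fucoxanthin (FUCO) at 0.5, 1 or 2 μM or with Resmetirom (RES). For other assays of the study, the FFA were oleic and palmitic acid carried on albumin. The concentration and the time of exposure are not stated for these libraries, nor is what Con cells received in place of FFA.

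Fatty acids that enter a hepatocyte are joined to coenzyme A by acyl-CoA synthetases and are then burned in mitochondria, built into membranes, or stored as triglyceride in lipid droplets that perilipins coat. They also act as signals: they are ligands of PPAR nuclear receptors, which raise genes of fatty acid oxidation. Unsaturated fatty acids hold back the product of SREBF1, among the SREBP factors that drive genes of cholesterol and fatty acid synthesis. Palmitic acid in excess is known as a stress to the endoplasmic reticulum (ER) and as a trigger of inflammatory signalling in liver cells.

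The libraries held between 17968042 and 19631852 counts in Con and between 18317088 and 18994381 in Model. Of 36684 listed genes, the 14557 with enough counts for edgeR's filter were tested. Levels are in CPM, the reads of a gene per 1000000 reads of the TMM-scaled library. Differences are log2 fold changes of Model minus Con with their standard error (SE) after the ± sign and a Benjamini-Hochberg adjusted p over all tested genes from edgeR's quasi-likelihood test. A gene is called higher or lower where the adjusted p was under 0.05, and a differentially expressed gene (DEG) where the log2 fold change was also beyond 1 in either direction. Hepatoma identity was checked with 9 hepatocyte and hepatoma markers, all of which were tested and present. Their summed CPM was 71792 to 80052 in Con and 57298 to 58012 in Model. Of 8 leukocyte markers, CD163 and MARCO had no count in the 6 libraries and PTPRC had 1 count in all, and of 6 endothelial markers CDH5, KDR and EMCN had none. COL3A1 and ACTA2, markers of stellate cells, were also at 0.

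FFA moved many genes by small amounts. Between the groups, 2555 genes were called, 17.6% of those tested, of which 1227 (8.43%) were higher and 1328 (9.12%) were lower in Model. Only 179 (1.23%) were higher and 105 (0.721%) lower as DEGs, and 1755 of the 2555 called genes changed by less than 1.5-fold. The median absolute log2 fold change of the called genes was 0.43. The median over all tested genes was 0.0011, which TMM scaling centres, and its quartiles were -0.16 and 0.16. The groups did not overlap in 5203 genes, 35.7% of those tested, and for 276 of the 284 DEGs.

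The share of genes called depended on their level. Among 2219 genes with a mean over 100 CPM, 25.7% were called, 214 higher and 357 lower, with a median absolute log2 fold change of 0.33. Among 1481 genes under 1 CPM, 6.01% were called, 70 higher and 19 lower, with a median of 1.54. Well-expressed genes were thus called at small differences, and genes of few reads only at large ones. In the plot of all genes the called genes form a thin band on either side of 0 at high levels, and the largest fold changes lie at low levels.

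**Figure D1:**
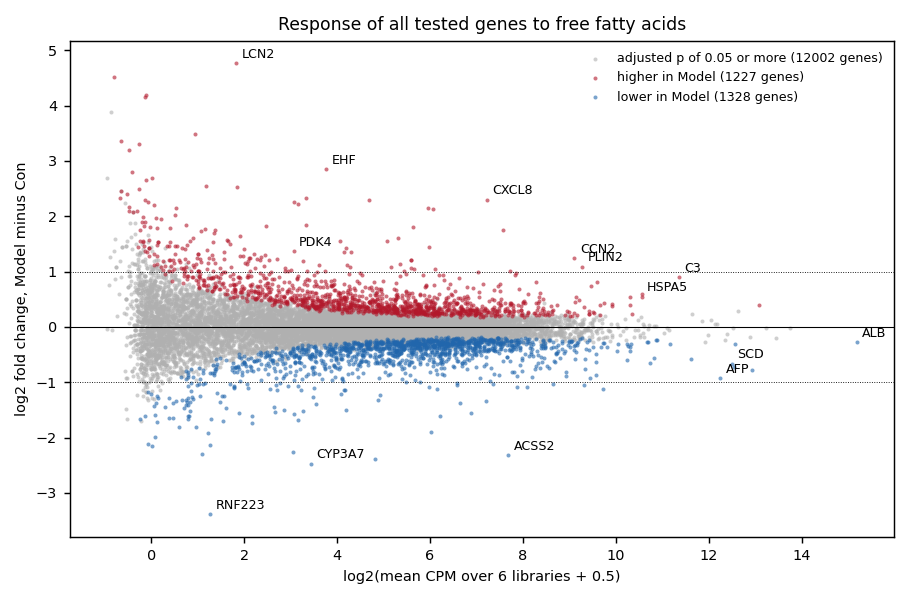
Each point is 1 of 14557 tested genes, with the log2 of its mean CPM plus 0.5 on the x axis and its log2 fold change, Model minus Con, on the y axis. Red points are the 1227 genes called higher, blue points the 1328 called lower, and the dotted lines mark a log2 fold change of 1 in either direction.

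The Con libraries were not alike. Con replicate 1 differed from replicates 2 and 3 by a chi-square of 15.5 and 13.2 per degree of freedom over genes, against 2.30 between replicates 2 and 3 and 2.99 to 3.75 among the Model libraries. On the first principal component (46.8% of the variance) it lay at -11.1, between the other Con libraries at -30.9 and -26.5 and the Model libraries at 21.9 to 23.8, and on the second (20.8%) it stood alone at 34.2. Of the 1328 lower genes, Con replicate 1 was the Con library nearest to the Model mean for 885, and of the 1227 higher genes for 691. Its part in the results was measured by leaving it out: 1443 genes were then called higher and 1604 lower, and 1037 of the 1227 and 1185 of the 1328 kept their call and direction. The alternatives below are 16 other fits, normalizations, filters and left-out libraries, named under the methods. A gene kept its call where it was called in every alternative in which it was tested, since some low genes drop out of the filter or the fit. The 30 gene lists used below were chosen with earlier results of these data known. Of their tested genes 37.1% were called, beside 17.6% of all tested genes. Counts for a list are therefore description and no test of the list. The share over all tested genes, for every list, is 8.43% higher and 9.12% lower. Where a gene list changed in bulk RNA, fewer cells that express it and less RNA per cell cannot be told apart. The p-values set each difference against a spread within groups estimated from all 18 libraries, and they hold for these cultures of 1 line.

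PLIN2 and a part of the fatty acid oxidation genes rose, and many genes of fatty acid and cholesterol synthesis fell. PLIN2, the perilipin that coats droplets in hepatocytes and is stabilised by stored fat (chr9:19108388-19127492, GRCh38.p14), stood at 409, 398 and 386 CPM in Con and 817, 893 and 829.5 in Model. The Model libraries all lay far above the Con libraries, which hardly varied (log2 fold change 1.09 ± 0.080, adjusted p = 1.48e-09). Among 40 tested genes of fatty acid oxidation and PPAR targets, 12 were higher and 5 were lower in Model, and 23 were not called. Among all genes 8.43% were higher and 9.12% lower. The median log2 fold change of the list was 0.12 beside 0.0011 over all tested genes. CPT1A, which admits fatty acids to mitochondria, had 103, 106 and 104 CPM in Con and 182, 182 and 173 in Model. The Con values were nearly equal and did not overlap with Model (log2 fold change 0.77 ± 0.073, adjusted p = 7.27e-08). PDK4, a kinase that inhibits pyruvate dehydrogenase, had 4.05, 4.48 and 4.65 CPM in Con and 11.1, 11.4 and 11.5 in Model (log2 fold change 1.37 ± 0.12, adjusted p = 4.87e-08). CREB3L3, a liver factor of fasting and triglyceride clearance, had 29.6, 17.6 and 18.3 CPM in Con and 80.2, 65.4 and 82.6 in Model, with Con replicate 1 above the other Con libraries and all of Con under Model (log2 fold change 1.80 ± 0.17, adjusted p = 4.97e-08).

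Other PPAR targets and oxidation enzymes moved by less or at lower levels. ANGPTL4, a secreted inhibitor of lipoprotein lipase, rose (log2 fold change 1.30 ± 0.30, adjusted p = 0.00388), as did the pantetheinase gene VNN1 (log2 fold change 1.24 ± 0.30, adjusted p = 0.00472) and ACOT12, a cytosolic acetyl-CoA hydrolase (log2 fold change 0.97 ± 0.18, adjusted p = 0.000385). Of the enzymes of the mitochondrial cycle, HADHA of the trifunctional protein (log2 fold change 0.33 ± 0.066, adjusted p = 0.00114) and the medium-chain dehydrogenase ACADM (log2 fold change 0.42 ± 0.10, adjusted p = 0.00578) were higher, ACADM at an adjusted p of 0.0556 without Con replicate 2. The factors above them went the other way. PPARGC1A, the coactivator of mitochondrial genes, was at 12.6, 18.6 and 16.2 CPM in Con and 9.21, 10.1 and 10.6 in Model and fell (log2 fold change -0.66 ± 0.13, adjusted p = 0.0011), and PPARA itself was slightly lower (log2 fold change -0.24 ± 0.082, adjusted p = 0.042), a call that was lost with no filter on low counts and without any 1 of Con replicates 2 and 3 and Model replicates 1 to 3 (adjusted p up to 0.211). Of the 12 higher members 8, and of the 5 lower members 3, kept their call, and the lower count was 3 without any 1 library other than Con replicate 1. Without Con replicate 1 the list had 16 members higher and 4 lower, with a median of 0.20.

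**Figure D2:**
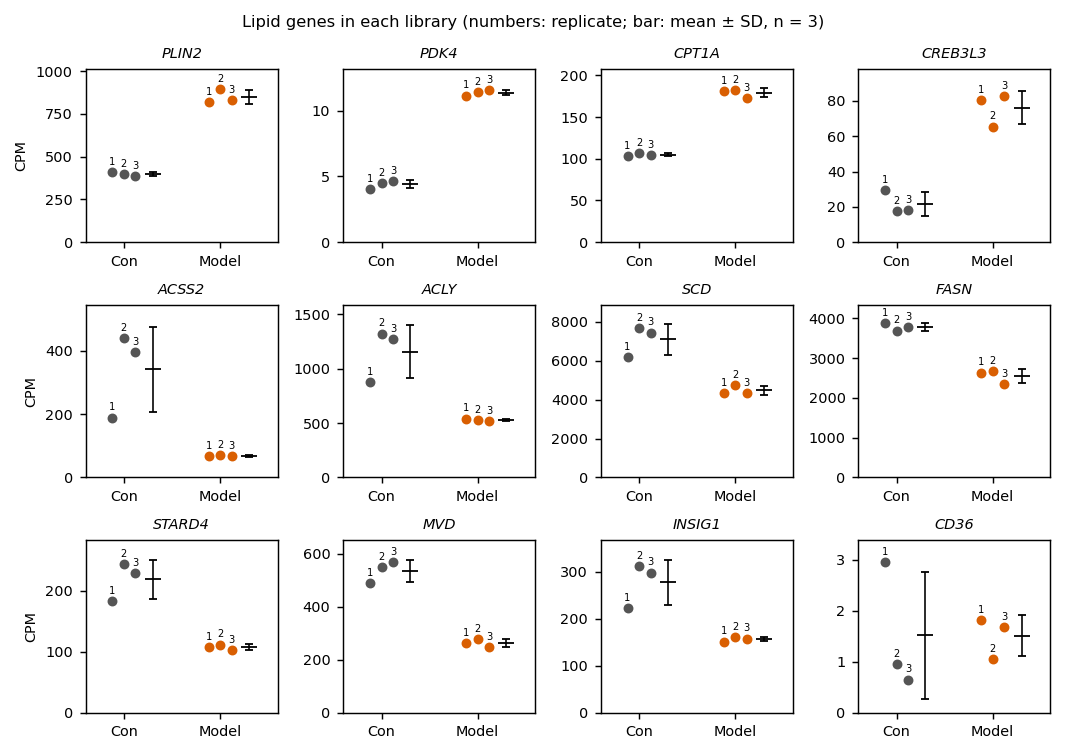
CPM of 12 lipid genes (y axes, from 0) in the Con (grey) and Model (orange) libraries, numbered by replicate, with the mean and SD of each group of 3 beside the points. PLIN2, PDK4, CPT1A and CREB3L3 lie higher in every Model library, the synthesis genes and INSIG1 lie lower in every Model library, Con replicate 1 lies apart for ACSS2, ACLY, STARD4, INSIG1 and CD36, and CD36 overlaps.

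Genes of fatty acid uptake and activation showed no shared direction. Of 15 tested, 2 were higher and 2 were lower in Model, beside 8.43% higher and 9.12% lower among all genes. So few calls are near that share, and the median was 0.0088. Higher members numbered 4 without Con replicate 1. CD36, a scavenger receptor that takes up fatty acids, had 51, 16 and 12 counts in Con and 33, 19 and 31 in Model, where Con replicate 1 held the highest value of all 6 and the groups overlapped (log2 fold change 0.0088 ± 0.37, adjusted p = 0.992). Without Con replicate 1 its log2 fold change was 0.92 ± 0.34 (adjusted p = 0.0557). At these counts and with Con replicate 1 apart, its SE of 0.37 leaves differences of that size and well above it undetectable. FABP1, the abundant liver binding protein for fatty acids, was not called either (log2 fold change -0.19 ± 0.11, adjusted p = 0.249), and without Con replicate 1 its log2 fold change was -0.011 ± 0.095. ACSL1, the main synthetase of liver, was not called (log2 fold change 0.21 ± 0.095, adjusted p = 0.144) but passed as higher without Con replicate 1 (log2 fold change 0.28 ± 0.10, adjusted p = 0.0459). Calls fell on other members: FABP5 was higher (log2 fold change 0.67 ± 0.13, adjusted p = 0.00074), while the synthetases ACSL3, with 684, 993 and 1048 CPM in Con and 463, 487 and 484 in Model (log2 fold change -0.93 ± 0.10, adjusted p = 6.42e-07), and ACSL4 (log2 fold change -0.43 ± 0.080, adjusted p = 0.000476) were lower. ACSL5, at under 2 CPM in every library, passed narrowly (log2 fold change 0.87 ± 0.30, adjusted p = 0.0463) and did not in 10 of the 15 alternatives in which it was tested. Without Con replicate 3 its log2 fold change was 0.54 (adjusted p = 0.277).

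Of 25 tested genes of fatty acid synthesis and desaturation, 0 were higher and 13 were lower in Model, beside 9.12% lower among all genes, with a median of -0.34. ACSS2, which makes acetyl-CoA from acetate (chr20:34874989-34927959), had 189, 439.9 and 397 CPM in Con and 67.1, 71.5 and 66.6 in Model. Con replicate 1 held the lowest of the Con values, far from the other two, and was still above every Model library (log2 fold change -2.32 ± 0.18, adjusted p = 3.15e-09). ACLY, which makes cytosolic acetyl-CoA from citrate, had 874, 1323 and 1269 CPM in Con and 542, 528 and 521 in Model, with the same placing of Con replicate 1 (log2 fold change -1.12 ± 0.10, adjusted p = 4.87e-08). The steps after it fell by less: the carboxylase ACACA (log2 fold change -0.48 ± 0.095, adjusted p = 0.000872), the synthase FASN with 3871, 3690.1 and 3784 CPM in Con and 2634, 2663 and 2339 in Model (log2 fold change -0.57 ± 0.12, adjusted p = 0.00183), and the desaturase SCD with 6203, 7671 and 7442 CPM in Con and 4346, 4744 and 4332 in Model (log2 fold change -0.67 ± 0.085, adjusted p = 5.39e-06). For FASN the 3 Con libraries were close together and well above Model. Elongation and further desaturation genes HSD17B12 (log2 fold change -1.09 ± 0.099, adjusted p = 4.96e-08), ELOVL5 (log2 fold change -0.56 ± 0.096, adjusted p = 0.000219) and FADS1 (log2 fold change -0.40 ± 0.070, adjusted p = 0.00024) were lower, as were the citrate carrier SLC25A1 (log2 fold change -0.47 ± 0.085, adjusted p = 0.00036) and PNPLA3, a droplet lipase under SREBP control (log2 fold change -0.71 ± 0.087, adjusted p = 3.22e-06). FADS2 (log2 fold change 0.17 ± 0.084, adjusted p = 0.172) and ELOVL6 (log2 fold change -0.13 ± 0.082, adjusted p = 0.284) were not called. Of the list's factors MLXIPL, the carbohydrate response factor, was lower (log2 fold change -0.60 ± 0.12, adjusted p = 0.0009), and SREBF1 was too (log2 fold change -0.34 ± 0.11, adjusted p = 0.0354) but lost its call without Con replicate 1 (adjusted p = 0.0854) and without any 1 of Con replicate 3 and the Model libraries (up to 0.157). Of the 13 lower members 11 kept their call.

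Cholesterol synthesis and uptake was the list with the largest share of members called. All 29 were tested and 0 were higher and 25 were lower in Model, against a background of 9.12% of genes lower, with a median of -0.56. Without Con replicate 1 the count was again 25 and the median -0.57, and 23 of the 25 kept their call. Lower members stood at the start, the middle and the end of the pathway. HMGCS1, with 1778, 2402 and 2275 CPM in Con and 1391, 1485 and 1491 in Model, stands at its start (log2 fold change -0.56 ± 0.097, adjusted p = 0.000208). The mevalonate steps MVK (log2 fold change -0.88 ± 0.10, adjusted p = 2.07e-06) and MVD, with 489, 549.7 and 566 CPM in Con and 262, 277 and 247 in Model (log2 fold change -1.03 ± 0.11, adjusted p = 4.08e-07), fell by more, as did LSS, which closes the sterol ring (log2 fold change -0.87 ± 0.10, adjusted p = 2.14e-06). Of the late steps DHCR7 (log2 fold change -0.75 ± 0.080, adjusted p = 3.58e-07) and SC5D (log2 fold change -0.90 ± 0.10, adjusted p = 9.90e-07) were lower. The sterol carrier STARD4, with 183, 244 and 229 CPM in Con and 108, 112 and 103 in Model (log2 fold change -1.02 ± 0.095, adjusted p = 6.30e-08), and TMEM97, which binds sterols (log2 fold change -1.04 ± 0.11, adjusted p = 2.51e-07), had, with MVD, the largest falls of the list.

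Of the regulators, SREBF2 (log2 fold change -0.42 ± 0.074, adjusted p = 0.000253) and INSIG1, the sterol-induced brake on SREBP transport and itself an SREBP target (log2 fold change -0.82 ± 0.099, adjusted p = 2.49e-06), were lower, while the escort SCAP (log2 fold change 0.060 ± 0.097, adjusted p = 0.725) and the second brake INSIG2 (log2 fold change -0.15 ± 0.10, adjusted p = 0.32) were not called, INSIG2 passing without Con replicate 1 (adjusted p = 0.0433). Promoters of 23 of the 29 tested members were in the RefSeq table (GRCh38.p14, 250 bases before to 50 after the gene's start) and were searched on both strands for TCACNCCAC, the letters of the sterol response element. One member, SREBF2, held a match, 133 bases before its start, and 1.15% of all 27305 promoters and 1.17% of those of tested genes did. It is shown since SREBF2 is the factor of the pathway and a called member. The stretch shown is chr22:41832955-41833004 on the + strand, with the match in capitals.
SREBF2: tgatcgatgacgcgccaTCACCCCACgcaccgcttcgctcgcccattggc

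**Figure D3:**
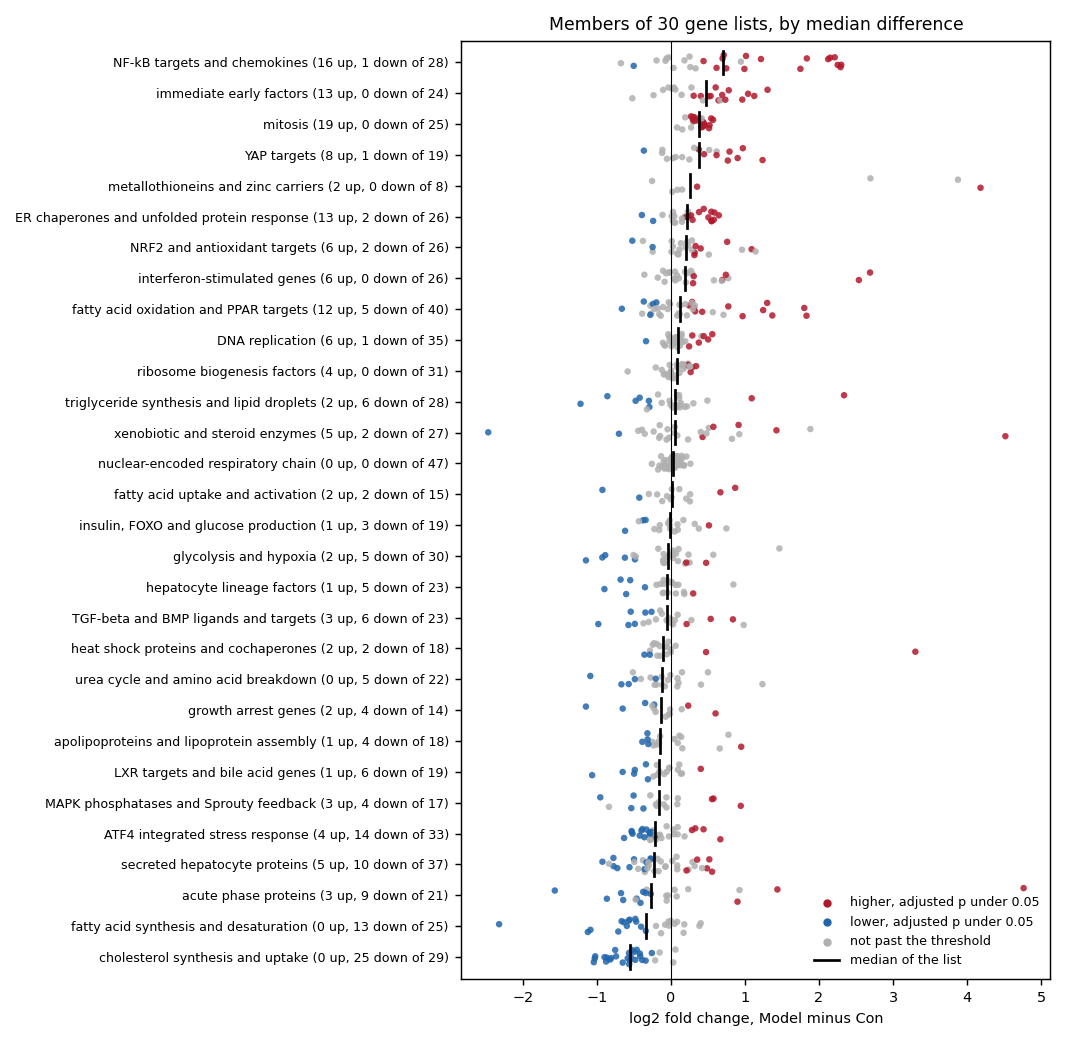
Log2 fold change, Model minus Con (x axis), of each tested member of 30 gene lists (rows, ordered by the median, drawn as a black bar), with counts of called members beside each name. Red points were called higher, blue points lower and grey points neither; cholesterol synthesis has 25 blue points of 29 and mitosis 19 red points of 25, and the respiratory chain has 47 grey points.

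Genes that build triglyceride did not move with PLIN2. Of 28 tested in the triglyceride and lipid droplet list, 2 were higher and 6 were lower in Model, with a median of 0.057. LPIN1, the phosphatidate phosphatase, had 31.4, 48.3 and 46 CPM in Con and 17.6, 21.0 and 15.3 in Model, with Con replicate 1 nearest to Model (log2 fold change -1.22 ± 0.14, adjusted p = 9.90e-07). GPAM, the first acyltransferase, had 43.8, 46.9 and 44.7 CPM in Con and 25.1, 25 and 24.5 in Model, in 2 tight groups (log2 fold change -0.86 ± 0.17, adjusted p = 0.000709). LPIN2 (log2 fold change -0.30 ± 0.068, adjusted p = 0.0032) and the lysosomal lipase gene LIPA (log2 fold change -0.42 ± 0.11, adjusted p = 0.00689) were also lower. DGAT2, which makes triglyceride from diglyceride, was not called (log2 fold change 0.11 ± 0.16, adjusted p = 0.691). The other higher member besides PLIN2 was G0S2, a lipase inhibitor, with 1, 0 and 1 counts in Con and 5, 4 and 3 in Model, too few for a fold change, and it lost its call in 8 of the 11 alternatives in which it was tested.

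Among 18 tested apolipoprotein and lipoprotein assembly genes, 1 was higher and 4 were lower in Model, with a median of -0.15, which was 0.0088 without Con replicate 1. The number called higher was 4 without Con replicate 1 and the count of lower members was 1 without Con replicate 2 or Model replicate 1 and 2 without Model replicate 2 or 3. APOB, the frame of very low density lipoprotein, was lower by a small amount in all Model libraries, with 6526, 6944 and 6575 CPM in Con and 5371, 5656 and 5179 in Model (log2 fold change -0.31 ± 0.078, adjusted p = 0.00729). TM6SF2, which helps to load lipoproteins with fat, was higher at a low level (log2 fold change 0.95 ± 0.22, adjusted p = 0.00298). MTTP, the transfer protein that loads APOB, was not called (log2 fold change 0.15 ± 0.092, adjusted p = 0.273), and passed as higher without Con replicate 1 (log2 fold change 0.28 ± 0.089, adjusted p = 0.0271). APOE (log2 fold change -0.32 ± 0.10, adjusted p = 0.0304) lost its call without Con replicate 1 (adjusted p = 0.0881) and without any 1 of Con replicate 2 and the Model libraries. Of 19 LXR and bile acid genes, 1 was higher and 6 were lower in Model, with a median of -0.16, which was -0.015 without Con replicate 1. NR1H4, the bile acid receptor FXR, had 32.9, 39.0 and 36.0 CPM in Con and 23.6, 20.8 and 24.2 in Model (log2 fold change -0.65 ± 0.099, adjusted p = 4.89e-05). Its target NR0B2, a repressor of bile acid synthesis, fell as well (log2 fold change -0.50 ± 0.097, adjusted p = 0.000774). ABCA1, the cholesterol exporter and LXR target, had 109, 121 and 123 CPM in Con and 88.2, 84.4 and 79.7 in Model, without overlap (log2 fold change -0.49 ± 0.086, adjusted p = 0.000268). The phospholipid floppase ABCB4 was the 1 higher member (log2 fold change 0.40 ± 0.099, adjusted p = 0.00584).

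The stress lists moved in opposite directions. Of 26 tested ER chaperone and unfolded protein response genes, 13 were higher and 2 were lower in Model, with a median of 0.22, and without Con replicate 1, 15 were higher and 2 lower. HSPA5, the main chaperone of the ER, had 1314, 1170.3 and 1183 CPM in Con and 1764, 1734 and 1859.5 in Model, all Model libraries above Con (log2 fold change 0.55 ± 0.074, adjusted p = 1.16e-05). CALR (log2 fold change 0.59 ± 0.071, adjusted p = 2.73e-06) and HSP90B1 (log2 fold change 0.54 ± 0.079, adjusted p = 3.14e-05), also ER chaperones, PDIA4, a disulfide isomerase (log2 fold change 0.44 ± 0.061, adjusted p = 1.69e-05), and SEC24D of the vesicle coat (log2 fold change 0.65 ± 0.098, adjusted p = 5.32e-05) rose by like amounts. ERN1, the sensor kinase IRE1, was lower (log2 fold change -0.39 ± 0.084, adjusted p = 0.00179). Of the 33 tested genes of the ATF4 integrated stress response, 4 were higher and 14 were lower in Model, with a median of -0.22, and without Con replicate 1, 4 were higher and 11 lower. TRIB3, a pseudokinase target of ATF4, had 530.1, 489.7 and 494 CPM in Con and 316, 340.4 and 319.5 in Model, without overlap (log2 fold change -0.63 ± 0.083, adjusted p = 8.24e-06). ATF4 itself was lower (log2 fold change -0.29 ± 0.063, adjusted p = 0.00215), as were the folate enzyme MTHFD2 (log2 fold change -0.42 ± 0.087, adjusted p = 0.0013), the amino acid carrier subunit SLC3A2 (log2 fold change -0.40 ± 0.085, adjusted p = 0.00172) and the tRNA synthetases AARS1 (log2 fold change -0.36 ± 0.077, adjusted p = 0.00182) and SARS1 (log2 fold change -0.39 ± 0.077, adjusted p = 0.000938). ATF3 was higher, with 157, 116 and 112 CPM in Con and 185, 238 and 189 in Model, its Con replicate 1 being the nearest to Model (log2 fold change 0.67 ± 0.12, adjusted p = 0.000415). DDIT3, the death-linked factor CHOP, was not called (log2 fold change 0.040 ± 0.11, adjusted p = 0.847).

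Antioxidant genes of the NRF2 list were higher in 6 and lower in 2 of 26 tested members, with a median of 0.21, and this list depended on Con replicate 1. The mean level of the list in Con replicate 1 was 0.28 above the Con mean on the log2 scale, higher than in the Model libraries at 0.21 to 0.24, while Con replicates 2 and 3 stood at -0.11 and -0.17. Without it 13 members were higher and 1 lower, with a median of 0.39. Higher members numbered 2 without Con replicate 2 or 3 and 3 without Model replicate 3. None of the 6 higher members kept its call. AKR1C1, an aldo-keto reductase with close paralogs, shows this, with 37.3, 15.3 and 15.2 CPM in Con and 48.2, 50.6 and 45.4 in Model (log2 fold change 1.09 ± 0.21, adjusted p = 0.000634). Its log2 fold change was 1.66 ± 0.14 without Con replicate 1. With DESeq2 on the 6 libraries its adjusted p was 0.0708. NQO1, a quinone reductase, was higher at a low level (log2 fold change 0.76 ± 0.19, adjusted p = 0.00598), with an adjusted p of 0.0635 without Con replicate 3, and HMOX1, heme oxygenase, was not called (log2 fold change 0.23 ± 0.15, adjusted p = 0.304). PGD, of the pentose phosphate path that supplies NADPH, was lower (log2 fold change -0.52 ± 0.071, adjusted p = 1.32e-05). Of 18 heat shock genes, 2 were higher and 2 were lower in Model, with a median of -0.11. The number called lower was 0 without Con replicate 2 or Model replicate 1 or 2. HSPA6 had 1, 0 and 2 counts in Con and 13, 10 and 11 in Model. Of 8 tested metallothionein and zinc genes, 2 were higher and 0 were lower in Model, with a median of 0.25. MT2A had 1, 0 and 1 counts in Con against 13, 21 and 10 in Model, and the manganese carrier SLC30A10 was higher (log2 fold change 0.35 ± 0.073, adjusted p = 0.00142). Both HSPA6 and MT2A were near 0 in Con, so no fold change is given.

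Immediate early genes, which respond to signals within minutes, were higher. Of 24 tested, 13 were higher and 0 were lower in Model, beside 8.43% higher and 9.12% lower among all genes, with a median of 0.47, and 10 of the 13 kept their call. Without Con replicate 1, 12 were higher and 1 lower. KLF6 had 613, 487 and 499 CPM in Con and 818, 982 and 859 in Model (log2 fold change 0.73 ± 0.095, adjusted p = 7.17e-06). NR4A1, an orphan nuclear receptor, had 36.5, 30.8 and 30.6 CPM in Con and 69.7, 66.4 and 65.4 in Model, and EGR2, a zinc finger factor, 3.93, 2.45 and 2.22 CPM in Con and 6.74, 5.95 and 8.50 in Model. In both the Model libraries all lay above the Con libraries (log2 fold change 1.04 ± 0.16, adjusted p = 4.69e-05 for NR4A1, and log2 fold change 1.30 ± 0.21, adjusted p = 0.000101 for EGR2). The antiproliferative BTG2 (log2 fold change 0.96 ± 0.13, adjusted p = 7.40e-06), IER3 (log2 fold change 1.13 ± 0.21, adjusted p = 0.000502), MYC (log2 fold change 0.60 ± 0.12, adjusted p = 0.000682), JUN (log2 fold change 0.54 ± 0.10, adjusted p = 0.000767) and EGR1 (log2 fold change 0.40 ± 0.088, adjusted p = 0.0022) were also higher. FOS missed the threshold (log2 fold change 0.43 ± 0.15, adjusted p = 0.0541) and passed it in 5 of the 16 alternatives, among them without Con replicate 3 (adjusted p = 0.0412) and without Model replicate 2 (0.0475). The promoters of 19 tested members were searched for the CArG box, the site of serum response factor, and EGR1 and SRF held one. The box was in 1.29% of all promoters and 1.04% of those of tested genes. The promoter of EGR1, a called member, is shown with its matches in capitals (chr5:138465359-138465418, + strand).
EGR1: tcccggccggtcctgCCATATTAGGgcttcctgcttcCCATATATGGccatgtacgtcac

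Feedback genes of the MAPK path were mixed: of 17 tested, 3 were higher and 4 were lower in Model, with a median of -0.17. The count of lower members was 1 without Con replicate 2 or 3 or Model replicate 3 and 2 without Model replicate 1. DUSP1, a phosphatase of p38 and JNK, had 165, 159 and 143 CPM in Con and 277, 315 and 306 in Model (log2 fold change 0.94 ± 0.095, adjusted p = 2.04e-07), and DUSP10 (log2 fold change 0.57 ± 0.13, adjusted p = 0.00305) and PHLDA1 (log2 fold change 0.55 ± 0.12, adjusted p = 0.00166) were higher too. ETV4, a factor downstream of ERK, was lower, with 57.4, 69.3 and 73.2 CPM in Con and 29.9, 40.0 and 33.3 in Model (log2 fold change -0.96 ± 0.12, adjusted p = 4.13e-06). Of 19 YAP targets, 8 were higher and 1 was lower in Model, with a median of 0.38, and 3 of the 8 kept their call. Higher members numbered 3 without Con replicate 2 or Model replicate 2. CCN2 had 331, 325 and 330.1 CPM in Con and 745, 773 and 807 in Model, and its relative CCN1 166, 143 and 156 CPM in Con and 295, 301 and 316 in Model. For CCN2 the spread within either group was far smaller than the gap between them (log2 fold change 1.24 ± 0.087, adjusted p = 1.01e-09 for CCN2, and log2 fold change 0.97 ± 0.089, adjusted p = 4.96e-08 for CCN1). NT5E, which makes adenosine, was higher as well (log2 fold change 0.77 ± 0.080, adjusted p = 3.14e-07). The TGF-beta and BMP list had 3 higher and 6 lower members of 23, with a median of -0.059. The number called lower was 3 without Con replicate 2 or Model replicate 3 and 2 without Con replicate 3 or Model replicate 1. ID2 (log2 fold change 0.54 ± 0.072, adjusted p = 1.02e-05) and the ligand BMP4, with 14.4, 14.3 and 16.4 CPM in Con and 28.4, 27.3 and 25.1 in Model (log2 fold change 0.84 ± 0.11, adjusted p = 1.09e-05), were higher. The activin-binding protein gene FST (log2 fold change -0.98 ± 0.15, adjusted p = 5.25e-05) and the hepatokine gene INHBE (log2 fold change -0.35 ± 0.070, adjusted p = 0.00111) were lower.

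NF-kB targets and chemokines had the highest median of the 30 lists. Of 28 tested, 16 were higher and 1 was lower in Model, against a background of 8.43% of genes higher, with a median of 0.70, and 15 of the 16 kept their call. Without Con replicate 1, 18 were higher and 2 lower, with a median of 0.72. Chemokines that draw neutrophils led the list. CXCL8 had 70.3, 43.6 and 37.4 CPM in Con and 212, 303 and 229.7 in Model (log2 fold change 2.30 ± 0.31, adjusted p = 9.75e-06). CXCL1 had 30.8, 21.7 and 22.3 CPM in Con and 95.6, 123 and 108 in Model (log2 fold change 2.12 ± 0.26, adjusted p = 3.97e-06). CXCL5 had 26.1, 20.6 and 21.3 CPM in Con and 83.0, 118 and 101 in Model (log2 fold change 2.15 ± 0.20, adjusted p = 4.97e-08). In each of these genes the lowest Model library lay far above the highest Con library. CXCL2 (log2 fold change 2.29 ± 0.30, adjusted p = 8.68e-06), CXCL3 (log2 fold change 2.21 ± 0.38, adjusted p = 0.000203) and CXCL6 (log2 fold change 2.25 ± 0.23, adjusted p = 2.33e-07) changed by like amounts at lower levels, and CXCL1, CXCL2 and CXCL3 are near-identical copies among which reads could be divided. CCL20, which attracts lymphocytes, had 103, 75.9 and 83.1 CPM in Con and 264, 300.0 and 317 in Model (log2 fold change 1.75 ± 0.18, adjusted p = 2.96e-07).

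These CXCL genes are neighbours. Between the start of CXCL8 and the end of CXCL2 (chr4:73740569-74099195), the table lists 6 expressed genes, CXCL8, CXCL6, CXCL1, CXCL5, CXCL3 and CXCL2 in that order, and all 6 were higher. The platelet chemokines that lie among them were not detected or nearly so: PF4 and PPBP had no count in any of the 6 libraries and PF4V1 had 0 or 1 counts in a library. Of other inflammatory genes, CCL2 and TNF had no count in the 6 libraries, IL6 had 0 to 2 counts and IL1B 0 to 5 counts in a library, so that a change in them was not detectable at this depth.

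Inhibitors and survival genes of the NF-kB path rose as well. NFKBIA, the inhibitor that NF-kB induces (log2 fold change 0.99 ± 0.19, adjusted p = 0.000663), TNFAIP3, which ends its signal (log2 fold change 1.22 ± 0.25, adjusted p = 0.00117), and BIRC3 (log2 fold change 1.83 ± 0.26, adjusted p = 2.13e-05) were higher. SOD2, the mitochondrial superoxide dismutase, had 142, 136 and 143 CPM in Con and 272, 297 and 280.4 in Model, with groups far apart (log2 fold change 1.01 ± 0.089, adjusted p = 3.42e-08). ICAM1, an adhesion receptor (log2 fold change 0.75 ± 0.14, adjusted p = 0.000543), and TNFAIP2 (log2 fold change 0.71 ± 0.10, adjusted p = 1.80e-05) rose by less. TRAF1 was the 1 lower member (log2 fold change -0.50 ± 0.13, adjusted p = 0.0101) and was not called without Model replicate 3 (adjusted p = 0.0719). Promoters of 24 tested members were searched on both strands for the kB site by its consensus, and 14 held a match, against 10.8% of all promoters. Among promoters of tested genes 1500 of 11524 held one. Of 16 called members with a promoter, 10 held one. CXCL8 had no match to these letters. BIRC3 and NFKBIZ, also called, held matches that are not shown. The stretches below, all GRCh38.p14, hold the matches of called chemokines of the list and of 2 inhibitors, in capitals. Their positions are chr4:73869293-73869342 (+) for CXCL1, chr4:74099246-74099295 (-) for CXCL2, chr4:74038740-74038789 (-) for CXCL3, chr4:73998738-73998787 (-) for CXCL5, chr4:73836568-73836617 (+) for CXCL6, chr2:227813742-227813791 (+) for CCL20, chr14:35404800-35404849 (-) for NFKBIA and chr6:137867169-137867218 (+) for TNFAIP3.
CXCL1: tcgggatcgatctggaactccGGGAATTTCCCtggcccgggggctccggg
CXCL2: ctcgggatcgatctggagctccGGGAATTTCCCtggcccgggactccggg
CXCL3: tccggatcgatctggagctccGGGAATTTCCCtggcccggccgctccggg
CXCL5: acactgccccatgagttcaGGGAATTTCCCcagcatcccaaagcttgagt
CXCL6: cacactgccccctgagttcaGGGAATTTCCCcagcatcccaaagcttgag
CCL20: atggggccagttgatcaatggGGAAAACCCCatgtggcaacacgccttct
NFKBIA: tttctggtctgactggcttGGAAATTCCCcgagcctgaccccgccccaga
TNFAIP3: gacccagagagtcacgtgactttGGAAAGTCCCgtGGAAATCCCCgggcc
In CXCL1, CXCL2 and CXCL3 the match begins 79 or 78 bases before the annotated start, and in CXCL5 and CXCL6 91 or 90 bases before it. For TNFAIP3 the start used for the promoter lies inside the listed span of the gene (chr6:137866349-137883312), and so does the stretch shown.

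Acute phase proteins, which the liver secretes in inflammation, did not rise as a group. Of 21 tested, 3 were higher and 9 were lower in Model, with a median of -0.27. LCN2, a siderophore-binding protein, went from 1, 7 and 3 counts in Con to 125, 73 and 123 in Model (log2 fold change 4.76 ± 0.44, adjusted p = 6.30e-08). Its Con level was near the detection limit and every Model library was far above it. Complement C3 was an abundant riser, with 1813, 1799.9 and 1885 CPM in Con and 3536, 3257 and 3455 in Model (log2 fold change 0.90 ± 0.085, adjusted p = 7.97e-08). CEBPD, a factor of the acute phase response, had 49.5, 24.5 and 26.9 CPM in Con and 97.0, 89.6 and 86.9 in Model (log2 fold change 1.44 ± 0.17, adjusted p = 1.22e-06). On the other side, A2M, a protease inhibitor, had 1879, 2236 and 2134 CPM in Con and 1309.6, 1383 and 1302 in Model (log2 fold change -0.65 ± 0.075, adjusted p = 1.63e-06), and ITIH3 (log2 fold change -1.57 ± 0.18, adjusted p = 1.83e-06) and the copper protein gene CP (log2 fold change -0.87 ± 0.13, adjusted p = 4.46e-05) were lower. The 3 fibrinogen chains FGA (log2 fold change -0.41 ± 0.11, adjusted p = 0.0107), FGB (log2 fold change -0.34 ± 0.11, adjusted p = 0.0317) and FGG (log2 fold change -0.38 ± 0.12, adjusted p = 0.0338) were lower by less. FGA lost its call without Con replicate 2 or 3, and FGB and FGG lost theirs without any 1 library other than Con replicate 1 (adjusted p up to 0.169). The count of lower members was 4 without Con replicate 2 or 3 and 5 without Model replicate 1. Of the 9 lower members 3 kept their call, and without Con replicate 1 the median was -0.14 and 5 members were higher. The kB site was in 2 of 15 promoters of the list (13.3%), beside 10.8% of all promoters. Among promoters of tested genes 1500 of 11524 held it, nearly the same share as in the list. The promoter of LCN2 held a match (chr9:128149263-128149312, +), shown since LCN2 had the largest rise of the genes with a mean of 1 CPM or more.
LCN2: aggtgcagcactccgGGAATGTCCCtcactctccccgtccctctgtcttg

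Of 26 tested interferon-stimulated genes, 6 were higher and 0 were lower in Model, beside 8.43% higher among all genes, with a median of 0.20, and 3 of the 6 kept their call. Higher members numbered 3 without Model replicate 3. CXCL10 was low in all libraries, with 0.809, 0.358 and 0.379 CPM in Con and 2.03, 3.45 and 3.57 in Model (log2 fold change 2.54 ± 0.34, adjusted p = 1.09e-05), and BST2, a virus tether, was under 1 CPM in every library and higher in Model (log2 fold change 2.69 ± 0.44, adjusted p = 0.000129).

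**Figure D4:**
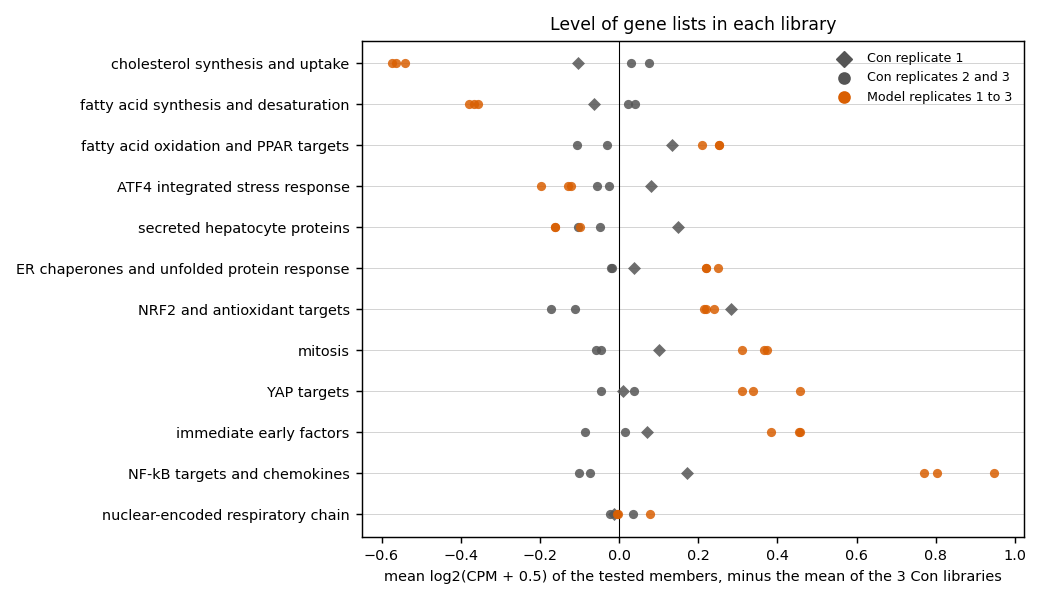
Mean log2(CPM + 0.5) of the tested members of 12 lists in each of the 6 libraries, minus the mean of the 3 Con libraries (x axis), for Con (grey, with replicate 1 as a diamond) and Model (orange). The Model libraries stand clear of all Con libraries for the NF-kB, immediate early, YAP, mitosis, ER, oxidation, cholesterol, fatty acid synthesis and ATF4 lists, while Con replicate 1 lies on or beyond the Model side for the NRF2 list.

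More secreted hepatocyte proteins were called lower than higher. Of 37 tested, 5 were higher and 10 were lower in Model, beside 8.43% higher and 9.12% lower among all genes. The median was -0.22, and without Con replicate 1, 6 were higher and 9 lower with a median of -0.10. The number called higher was 2 without Con replicate 2 and 3 without Con replicate 3 or Model replicate 3 and the count of lower members was 6 without Model replicate 2 or 3. AHSG, or fetuin A, had 9902, 10136 and 9476 CPM in Con and 5691, 5991 and 5535 in Model, without overlap (log2 fold change -0.78 ± 0.096, adjusted p = 3.35e-06). The iron carrier TF had 5253, 9057 and 7941 CPM in Con and 4592, 4276 and 4600.4 in Model, with Con replicate 1 close to Model (log2 fold change -0.72 ± 0.13, adjusted p = 0.000371). AFP, the fetal albumin that hepatomas make, had 6364, 6672 and 6051 CPM in Con and 3389.6, 3260.2 and 3395 in Model (log2 fold change -0.93 ± 0.14, adjusted p = 4.62e-05), and the groups lay far apart. ALB took 3.72%, 4.04% and 3.79% of all counts in Con and 3.30%, 3.36% and 3.29% in Model. Its fall was small (log2 fold change -0.27 ± 0.087, adjusted p = 0.031) and was not called without any 1 library other than Con replicate 1 (adjusted p up to 0.138). ALB (chr4:73404287-73421482), AFP (chr4:73436221-73456174) and AFM (chr4:73481745-73504001) are adjacent members of 1 gene family. AFM, a vitamin E carrier, was higher, with 12.8, 9.91 and 10.4 CPM in Con and 16.3, 15.9 and 16.6 in Model (log2 fold change 0.56 ± 0.15, adjusted p = 0.0114), though not without Con replicate 2 or 3 (adjusted p = 0.0666 and 0.0564). These neighbours therefore moved in different directions. PROS1, an anticoagulant (log2 fold change 0.35 ± 0.087, adjusted p = 0.00562), and the complement protease C1S (log2 fold change 0.49 ± 0.11, adjusted p = 0.00213) were higher, while coagulation factor F7 (log2 fold change -0.33 ± 0.077, adjusted p = 0.00354) was lower.

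Of 23 lineage factors, 1 was higher and 5 were lower in Model, with a median of -0.048. HNF4A, the main factor of hepatocyte identity, had 6275, 5249 and 5979 counts in Con and 6370, 5721 and 6216 in Model, overlapping and not called (log2 fold change 0.0068 ± 0.10, adjusted p = 0.976). CEBPA (log2 fold change -0.55 ± 0.14, adjusted p = 0.0064), FOXA3 (log2 fold change -0.35 ± 0.090, adjusted p = 0.00746), ONECUT2 (log2 fold change -0.61 ± 0.11, adjusted p = 0.000241) and RORA (log2 fold change -0.68 ± 0.15, adjusted p = 0.00182) were lower, and PROX1 was higher (log2 fold change 0.30 ± 0.073, adjusted p = 0.00509). Of 27 xenobiotic and steroid enzymes, 5 were higher and 2 were lower in Model, with a median of 0.052. Higher members numbered 2 without Con replicate 2 or 3 or Model replicate 2 or 3 and 3 without Model replicate 1. The fetal cytochrome CYP3A7, which has close paralogs, had 11, 22.7 and 18.6 CPM in Con and 3.24, 2.95 and 3.25 in Model (log2 fold change -2.47 ± 0.26, adjusted p = 3.93e-07). The sulfotransferase SULT2A1 was lower (log2 fold change -0.70 ± 0.16, adjusted p = 0.00299), and the glucuronosyltransferase UGT2B7 was higher (log2 fold change 0.57 ± 0.11, adjusted p = 0.000959). The summed CPM of the leukocyte markers, 3 of 8 tested, was 5.84 to 8.03 in Con and 16.5 to 22.0 in Model, that of the endothelial markers, 1 of 6 tested, 0.162 to 0.751 in Con and 1.15 to 1.45 in Model, and that of the stellate markers, 5 of 8 tested, 31.4 to 45.3 in Con and 26.3 to 29.0 in Model. Their part in the results above was not tested. Of single markers, LYZ rose, with 3.64, 2.87 and 2.97 CPM in Con and 17.4, 12.4 and 18 in Model (log2 fold change 2.33 ± 0.17, adjusted p = 1.48e-09), while the leukocyte markers PTPRC, CD163 and MARCO stayed at or near 0. LYZ was the 1 called of the 3 tested leukocyte markers, whose log2 fold changes ran from -0.31 to 2.33 with a median of 0.32. PECAM1 had 13, 3 and 3 counts in Con and 21, 25 and 23 in Model (log2 fold change 1.78 ± 0.43, adjusted p = 0.00488) with CDH5, KDR and EMCN at 0. Its log2 fold change was 2.84 ± 0.50 without Con replicate 1. LUM (log2 fold change -1.53 ± 0.25, adjusted p = 0.000127) and PDGFRB (log2 fold change -0.57 ± 0.12, adjusted p = 0.00208) were lower and COL1A2 higher (log2 fold change 1.97 ± 0.48, adjusted p = 0.00509) with COL3A1 and ACTA2 at 0. The cholangiocyte markers KRT19 (log2 fold change 0.17 ± 0.11, adjusted p = 0.312) and EPCAM (log2 fold change 0.090 ± 0.073, adjusted p = 0.435) were well expressed and not called.

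In glucose metabolism, 2 of 30 tested glycolysis and hypoxia genes were higher and 5 lower, with a median of -0.046. HK2, the hexokinase of growing cells, had 138, 186 and 203 CPM in Con and 89.7, 98.0 and 88.9 in Model (log2 fold change -0.93 ± 0.11, adjusted p = 9.90e-07). PFKFB4 was lower (log2 fold change -1.15 ± 0.14, adjusted p = 4.13e-06) and its paralog PFKFB3 higher (log2 fold change 0.47 ± 0.13, adjusted p = 0.00965). EPAS1, the hypoxia factor HIF-2 alpha, was lower (log2 fold change -0.62 ± 0.074, adjusted p = 2.08e-06). Of 19 insulin and FOXO genes, 1 was higher and 3 were lower in Model, with a median of -0.018. The number called lower was 0 without Con replicate 2 or Model replicate 3 and 1 without Con replicate 3 or Model replicate 1. IGFBP1 (log2 fold change -0.62 ± 0.21, adjusted p = 0.0469) lost its call without any 1 library (adjusted p from 4.13e-06 to 0.176 over the 16 alternatives), and TXNIP was not called (log2 fold change 0.088 ± 0.28, adjusted p = 0.869). TXNIP had 126 counts in Con replicate 1, against 443 and 473 in the other Con libraries and 311 to 456 in Model. TRIB1, a pseudokinase tied to plasma lipids, was higher (log2 fold change 0.51 ± 0.098, adjusted p = 0.000615). Of 22 urea cycle and amino acid genes, 0 were higher and 5 were lower in Model, with a median of -0.12, which was -0.049 without Con replicate 1. The count of higher members was 3 without Con replicate 1 and lower members numbered 3 without Con replicate 1, 2 or 3 or Model replicate 2 or 3. HAL, which breaks down histidine, had 312, 407 and 398 CPM in Con and 177, 179.7 and 168 in Model (log2 fold change -1.09 ± 0.11, adjusted p = 1.33e-07). GLUL, glutamine synthetase, was lower (log2 fold change -0.49 ± 0.088, adjusted p = 0.000364). Of 47 tested nuclear-encoded respiratory chain genes, edgeR called 0 in the fit of all libraries, with a median of 0.022, and 4 had an unadjusted p under 0.05. DESeq2 called 0 as well, and edgeR on the 6 libraries alone called 2 higher.

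Mitosis genes were higher. All 25 were tested, 19 were higher and 0 were lower in Model, beside 8.43% higher and 9.12% lower among all genes, all 25 had a positive log2 fold change, and the median was 0.38. Without Con replicate 1, 18 were higher, and 14 of the 19 kept their call. CCNB1, the mitotic cyclin, had 81.3, 71.8 and 72.4 CPM in Con and 100.2, 103 and 106 in Model (log2 fold change 0.46 ± 0.073, adjusted p = 8.98e-05). TOP2A, which untangles chromosomes, had 291, 246 and 249.5 CPM in Con and 356, 338 and 371 in Model (log2 fold change 0.44 ± 0.080, adjusted p = 0.000421). The kinesin KIF23 (log2 fold change 0.57 ± 0.080, adjusted p = 2.08e-05), the survivin gene BIRC5 (log2 fold change 0.52 ± 0.080, adjusted p = 5.89e-05) and the checkpoint kinase BUB1 (log2 fold change 0.38 ± 0.072, adjusted p = 0.000542) changed by like, small amounts, with no overlap between groups. DNA replication genes moved less: of 35, 6 were higher and 1 was lower in Model, against the same background, with a median of 0.088, led by the cyclin CCNE1 (log2 fold change 0.56 ± 0.12, adjusted p = 0.00134). The number called higher was 3 without Con replicate 2 or 3 or Model replicate 3. Of 14 growth arrest genes, 2 were higher and 4 were lower in Model, with a median of -0.14. The count of lower members was 1 without Con replicate 3 or Model replicate 2 or 3 and 2 without Model replicate 1. CDKN2B, a cell cycle inhibitor, had 22.9, 23.3 and 25.2 CPM in Con and 10.1, 11.9 and 10.2 in Model (log2 fold change -1.15 ± 0.13, adjusted p = 9.52e-07), and GADD45B was higher (log2 fold change 0.60 ± 0.11, adjusted p = 0.000259). Of 31 ribosome biogenesis factors, 4 were higher and 0 were lower in Model, with a median of 0.078, and none of the 4 kept its call. Higher members numbered 9 without Con replicate 1, 0 without Con replicate 2 or 3 or Model replicate 2 and 1 without Model replicate 3.

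The largest single falls and rises, at a mean of at least 1 CPM and without overlap, included genes of the lists above and others. Of those not yet named, RNF223 had 0.809, 4.78 and 4.87 CPM in Con and 0.110, 0.445 and 0.433 in Model, with Con replicate 1 far below the other Con libraries (log2 fold change -3.38 ± 0.50, adjusted p = 4.18e-05). LBHD1 (log2 fold change -2.38 ± 0.18, adjusted p = 3.15e-09) and SLCO4C1, an organic anion carrier with 67.0, 125 and 115 CPM in Con and 25.8, 27.4 and 29.4 in Model (log2 fold change -1.89 ± 0.15, adjusted p = 9.10e-09), were lower in the same pattern. SCN2B (log2 fold change -2.29 ± 0.39, adjusted p = 0.000199), GRIK2 (log2 fold change -1.91 ± 0.38, adjusted p = 0.000938), CAMK4 (log2 fold change -1.82 ± 0.41, adjusted p = 0.00309), KLHDC8A (log2 fold change -1.81 ± 0.35, adjusted p = 0.000769), PPP1R1A (log2 fold change -1.74 ± 0.31, adjusted p = 0.000291) and LOC101926907 (log2 fold change -1.70 ± 0.26, adjusted p = 5.89e-05) fell at low levels. Of the rises, EHF, an epithelial ETS factor, had 3.93, 2.45 and 3.19 CPM in Con and 23.1, 20.4 and 25.7 in Model, and its adjusted p was the smallest of any gene in the rule (log2 fold change 2.85 ± 0.16, adjusted p = 2.43e-11). GPX2, a glutathione peroxidase, had 1.5, 0.716 and 0.541 CPM in Con and 5.98, 5.45 and 4.44 in Model (log2 fold change 2.52 ± 0.28, adjusted p = 9.52e-07), and the melatonin receptor gene MTNR1A rose from 7, 2 and 3 counts in Con to 46, 54 and 44 in Model (log2 fold change 3.49 ± 0.36, adjusted p = 2.33e-07).

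The other groups of the series also received FFA, each with a second agent, and were compared with the same Con libraries, so their differences are not independent of those of Model. Side by side, PLIN2 had log2 fold changes against Con of 1.09 ± 0.080 in Model, 0.82 ± 0.079, 0.85 ± 0.079 and 0.70 ± 0.079 with FUCO at 0.5, 1 and 2 μM and 0.99 ± 0.079 with RES. CPT1A had 0.77 ± 0.073 in Model, 0.56 ± 0.073, 0.58 ± 0.073 and 0.38 ± 0.073 with FUCO at 0.5, 1 and 2 μM and 1.97 ± 0.074 with RES. ACSS2 had -2.32 ± 0.18 in Model, -2.45 ± 0.18, -2.30 ± 0.18 and -2.52 ± 0.18 with FUCO at 0.5, 1 and 2 μM and -2.99 ± 0.18 with RES. For these 3 genes every FFA-treated group differed from Con in the direction of Model. LCN2 was likewise higher in every group, with 4.76 ± 0.44 in Model, 5.07 ± 0.43, 5.15 ± 0.42 and 5.62 ± 0.41 with FUCO at 0.5, 1 and 2 μM and 5.99 ± 0.39 with RES, and CXCL1 was too, with 2.12 ± 0.26 in Model, 1.82 ± 0.26, 1.46 ± 0.26 and 1.79 ± 0.26 with FUCO at 0.5, 1 and 2 μM and 1.02 ± 0.26 with RES. CXCL8 had 2.30 ± 0.31 in Model, 1.13 ± 0.30, 0.66 ± 0.30 and 1.96 ± 0.30 with FUCO at 0.5, 1 and 2 μM and 2.26 ± 0.31 with RES, and with 1 μM FUCO it was not called (adjusted p = 0.135). Not every gene was higher in every group. CREB3L3 had 1.80 ± 0.17 in Model and was higher in all FUCO groups. With RES it had -0.061 ± 0.17 and was not called (adjusted p = 0.778). C3 had 0.90 ± 0.085 in Model and was higher in all FUCO groups, but was lower with RES at -0.56 ± 0.085. CCN2 and EGR2 differed in the FUCO groups. CCN2 had 1.24 ± 0.087 in Model, -0.10 ± 0.086, -0.39 ± 0.087 and 0.071 ± 0.086 with FUCO at 0.5, 1 and 2 μM and 0.74 ± 0.086 with RES, of which those at 0.5 and 2 μM were not called (adjusted p = 0.43 and 0.601) and that at 1 μM was a fall. EGR2 had 1.30 ± 0.21 in Model, -1.54 ± 0.28, -2.22 ± 0.31 and -0.86 ± 0.26 with FUCO at 0.5, 1 and 2 μM and 0.96 ± 0.21 with RES, below Con in all 3 FUCO groups and above it with RES. HSPA5 had 0.55 ± 0.074 in Model, 0.21 ± 0.074, 0.037 ± 0.074 and -0.19 ± 0.074 with FUCO at 0.5, 1 and 2 μM and 0.82 ± 0.074 with RES, and those at 1 and 2 μM were not called (adjusted p = 0.782 and 0.063).

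**Figure D5:**
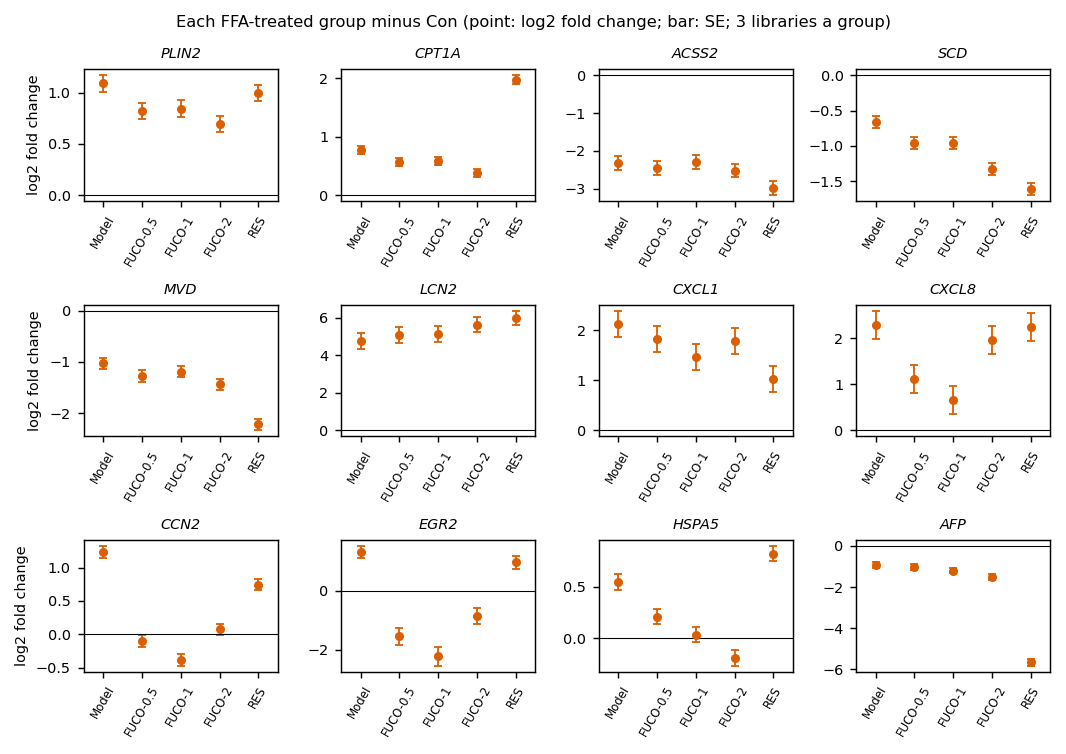
Log2 fold change against Con (y axes) with its SE for 12 genes in the Model group and the 4 groups given FFA with FUCO at 0.5, 1 or 2 μM or with RES (x axes). PLIN2, CPT1A, LCN2 and CXCL1 lie above 0 and ACSS2, SCD, MVD and AFP below 0 in every group, while CCN2, EGR2 and HSPA5 lie on both sides of 0.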

How the data were processed

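The authors sequenced polyadenylated RNA as paired ends, trimmed reads with fastp, mapped them to GRCh38 (STAR) and assigned them to genes (featureCounts). The deposited values are raw counts of reads per gene, with no normalization. How strand and reads with several positions were treated is not given in the sources used here, so genes with close paralogs (CXCL1, CXCL2 and CXCL3, AKR1C1, CYP3A7, UGT2B7, MT2A) or overlapping neighbours (LBHD1) are uncertain. Columns were assigned to samples by the library name in the labels.

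Counts of all 18 libraries were fitted together with edgeR 4.0.16 in R 4.3.3 (1 term for each of 6 groups, filterByExpr with a minimum count of 10 and a minimum total of 15, TMM factors, quasi-likelihood F test, prior count of 0.125), and Model was compared with Con. P-values were adjusted by Benjamini-Hochberg over 14557 genes. The SE is the absolute log2 fold change divided by the square root of F. The fit was also run on simulated counts with 1 spread for all genes, which did not imitate the deviation of Con replicate 1.

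Alternatives were DESeq2 1.42.0 on 18 or 6 libraries, edgeR on the 6 libraries or without the RES libraries, RLE factors, no filter or at least 10 counts in every library, a prior count of 2, the replicate number as a block in 18 or 6 libraries, and each of the 6 libraries left out, 16 in all. For DEGs glmTreat was also used. Genes named were, among DEGs at a mean of at least 1 CPM with no overlap, the 12 highest and the 12 lowest by log2 fold change, up to 8 called members with the smallest p in each list, a set of lipid, stress, inflammation and liver genes, and cell type markers, with further called or uncalled members named for their role. The 30 gene lists, 5 marker lists and named genes were chosen with earlier results of these data known. A fold change is not given where a group held 3 counts or fewer per library and the rise rested on few reads (MT2A, HSPA6, G0S2). Promoters and gene positions came from RefSeq tables of GRCh38.p14. Some genes that the naming rule selects are not reported here.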

Additional observations from a re-analysis of the deposited data

How the results depend on the processing

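Counts of genes past the adjusted p moved by over 1.5 times when single libraries were left out, and counts of DEGs under other settings. Leaving out each library in turn gave 754 to 1443 genes past the adjusted p higher in Model and 839 to 1604 lower, against 1227 and 1328, and 139 to 239 higher and 77 to 157 lower DEGs, against 179 and 105. The lowest counts came without Con replicate 2 or 3 and the highest without Con replicate 1. Without Con replicate 2 there were 762 higher and 839 lower, without Con replicate 3 754 and 843, and without Model replicate 3 793 and 861. DESeq2 on the 6 libraries gave 100 higher DEGs, requiring at least 10 counts in every library gave 94 higher and 52 lower (fewer genes were tested), and glmTreat, which tests against a log2 fold change of 1, gave 15 and 9.

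The same replicate numbers did not pair the samples: deviations of same-numbered libraries correlated at 0.060, 0.027 and 0.021. With the replicate number as a block, 1253 genes were higher and 1364 lower in the fit of 18 libraries, and 1252 and 1461 in the fit of 6.

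Of 189 named genes 173 were called, 158 of them in each alternative in which they were tested, and none of the 173 changed sign. Of the 15 that lost their call in at least 1, 4 did so without Con replicate 1. Of the uncalled genes, CD36 had log2 fold changes of -1.24e-05 and -0.0019 with DESeq2 on 18 and 6 libraries, -0.23 without Con replicate 2, -0.37 without Con replicate 3, -0.14 without Model replicate 1 and -0.071 without Model replicate 3, against 0.92 without Con replicate 1. SCAP ranged from -0.025 without Con replicate 2 to 0.19 without Con replicate 1. HNF4A had -0.037 without Con replicate 2, -0.016 without Con replicate 3 and -0.025 without Model replicate 1, against 0.071 without Con replicate 1. TXNIP had -0.31 without Con replicate 1 and -0.041 without Model replicate 3, against 0.42 without Con replicate 2. The cause was not tested. Genes under about 1 CPM rest on few counts, so that small differences in them were not detectable.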

Other observations

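Most called genes lay outside the 30 lists: 2276 of 2555. Among those with the smallest p-values, chosen after their values were seen, 12 genes of known function are given here. The mitochondrial pyruvate carrier subunit MPC1 (log2 fold change -0.85 ± 0.084, adjusted p = 1.49e-07) and the pyruvate dehydrogenase subunit DLAT (log2 fold change -1.04 ± 0.11, adjusted p = 2.14e-07) were lower. Other genes of pyruvate import and use were not collected as a list. HPGD, which inactivates prostaglandins, had 105, 116 and 112 CPM in Con and 34.7, 37.6 and 36.9 in Model (log2 fold change -1.61 ± 0.093, adjusted p = 2.43e-11), and the lysosomal cholesterol exporter NPC1 was lower (log2 fold change -0.70 ± 0.078, adjusted p = 7.09e-07), as were the matrix protein gene THBS4 (log2 fold change -1.33 ± 0.079, adjusted p = 3.15e-11), the factor HES6 (log2 fold change -1.56 ± 0.13, adjusted p = 2.17e-08) and the chemokine CXCL12 (log2 fold change -0.97 ± 0.096, adjusted p = 1.60e-07), which unlike the CXCL genes on chromosome 4 fell.

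Higher genes included parts of innate immune signalling. The RNase gene ZC3H12A, which degrades cytokine messages, had 25.8, 16.7 and 16.0 CPM in Con and 58.9, 61.0 and 58.0 in Model (log2 fold change 1.6 ± 0.15, adjusted p = 9.51e-08). The kinases IKBKE (log2 fold change 1.56 ± 0.13, adjusted p = 2.17e-08) and MAP3K8 (log2 fold change 1.36 ± 0.14, adjusted p = 3.70e-07) and the adaptor PIK3AP1 (log2 fold change 0.93 ± 0.078, adjusted p = 1.51e-08) were also higher, as was LPCAT1, which remodels phosphatidylcholine (log2 fold change 0.94 ± 0.091, adjusted p = 1.18e-07). No enrichment test was run on these genes.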
